A study of Rattus norvegicus and Mus musculus and Macaca mulatta with 84 samples.

Results

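Liver microRNAs (miRNAs) of UCD-T2DM rats with 3 months of diabetes were compared with those of prediabetic UCD-T2DM rats. The UCD-T2DM rat is a model from the University of California, Davis, in which obesity and insulin resistance come before type 2 diabetes. Members were the 6 small RNA libraries whose table columns carry these labels, 3 prediabetic and 3 at 3 months, of 12 small RNA libraries from this strain and 84 samples in the series. All rows of their table were described: 1076 miRNA forms, of which 373 were canonical and 703 carried a signed offset such as +1. All animals shared the strain and the tissue, and the controls were animals of this model before diabetes, with no other strain as a healthy control. Neither age, sex, diet nor treatment is given in the labels of these groups, so age cannot be told apart from the duration of diabetes. A further 6 libraries from rats with 2 weeks of diabetes entered the estimate of the spread between animals. RNA libraries of the same strain, 5 prediabetic and 5 at 3 months, were used for host and target genes. The sample names hold a different animal number for each library within an assay; 3 prediabetic animals and 1 animal at 3 months gave libraries in both assays.

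A miRNA is cut from a hairpin whose 5′ and 3′ arms can each give a mature strand, written -5p and -3p. The mature strand guides a silencing complex to messenger RNAs, mainly by pairing through its seed, bases 2 to 8, and the paired messenger RNA is then translated less or degraded. miRNAs with the same seed form a family and can share targets, and miRNAs that lie close together in the genome are often cut from the same primary transcript. In liver, miR-122 is the dominant miRNA of hepatocytes, and other miRNAs are known regulators of lipid, cholesterol and glucose metabolism, fibrosis and cell division.

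Values are reads per 1000000 reads assigned to miRNAs (RPM), so every library sums to 1000000 and each value is a share. A share can differ because its own miRNA or an abundant other miRNA differs, and in whole liver fewer cells of a type and less RNA per cell cannot be told apart. Sequencing depth is unknown, so no counting interval can be given. All libraries were run in lane 3, and their log2 values correlated at 0.989 to 0.996 within a group and at 0.985 to 0.991 between the groups. The hepatocyte markers miR-122, miR-192 and miR-194 were all abundant, miR-192-5p for example at 25947 to 31371 RPM. Prediabetic replicate 2 stood apart in epithelial miRNAs and prediabetic replicate 3 in the muscle miRNA miR-1-3p; their values stand beside the results they touch.

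The mature sequences below belong to the called miRNAs and to the miR-29 family named in the title of the series. They also include 3 of the seed families whose summed levels did not overlap between the groups, all 3 higher. Also without overlap were miR-23a-3p with miR-23b-3p and the miR-30 seed family, both higher. The family of miR-25-3p and miR-92a-3p was lower without overlap, at 4501 ± 328 against 3850.3 ± 157 RPM. These families are named because their groups did not overlap. Over all 435 forms tested 20.2% were higher and 10.6% lower without overlap, so separate groups are not particular to them. All sequences printed are from RefSeq (assembly GRCr8), 5′ to 3′, with the seed in capitals. A RefSeq sequence was matched to 208 of the 230 canonical forms tested.
miR-221-3p: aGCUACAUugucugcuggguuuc
miR-222-3p: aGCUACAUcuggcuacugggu
miR-185-5p: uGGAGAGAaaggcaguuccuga
miR-672-5p: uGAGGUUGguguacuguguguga
miR-193a-5p: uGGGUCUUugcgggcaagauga
miR-193a-3p: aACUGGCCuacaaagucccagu
miR-27a-3p: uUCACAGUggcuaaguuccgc
miR-27b-3p: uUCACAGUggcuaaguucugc
miR-103-3p: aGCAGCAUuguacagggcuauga
miR-107-3p: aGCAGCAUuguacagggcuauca
miR-29a-3p: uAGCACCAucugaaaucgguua
miR-29b-3p: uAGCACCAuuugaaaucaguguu
miR-29c-3p: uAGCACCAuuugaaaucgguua
The pairs miR-221-3p and miR-222-3p, miR-27a-3p and miR-27b-3p, and miR-103-3p and miR-107-3p each share a seed, as do the 3 miR-29 members. The seeds of miR-193a-5p, miR-185-5p and miR-672-5p differ from these and from each other, and the 2 arms of miR-193a have different seeds.

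After 3 months of diabetes miR-221-3p, a miRNA of proliferating and injured tissue, stood at more than double its prediabetic share, and miR-185-5p, a miRNA reported to act on cholesterol metabolism, also rose. The less abundant miR-672-5p and miR-193a-5p fell. Most other miRNAs differed little: across the 435 forms that averaged 10 RPM or more over the 12 libraries, the median log2 difference, 3 months minus prediabetic, was 0.03, and the 5th and 95th percentiles were -0.41 and 0.47. A log2 difference is the difference of mean log2(RPM + 1), which understates the change of low values. limma called 5 forms (1.15% of those tested) at an adjusted p under 0.05, 3 higher (0.690%) and 2 lower (0.460%), while 91 forms (20.9%) had an unadjusted p under 0.05, 55 higher (12.6%) and 36 lower (8.28%). The groups did not overlap in 134 forms (30.8%), 88 of them higher (20.2%) and 46 lower (10.6%) at 3 months.

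The 5 calls depend on the spread borrowed from the 2-week libraries: with the 6 libraries alone limma called 0 forms, all 5 had an adjusted p of 0.0576, and 112 forms had an unadjusted p under 0.05. With scaling by the median of ratios 19 forms were called, 10 higher and 9 lower, and with values per 1000000 reads other than miR-122 24 were called, 8 higher and 16 lower, and both sets held all 5 forms. From 2 weeks to 3 months, a comparison without the prediabetic libraries, 109 of all 435 forms (25.1%) were called. The plot of all forms against their abundance shows where the called forms lie.

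**Figure D1:**
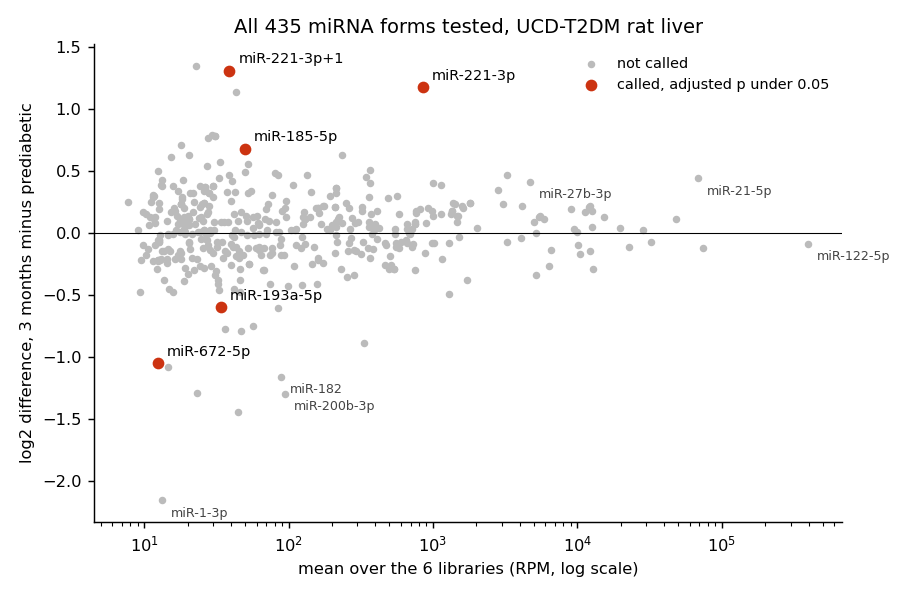
Each point is 1 of the 435 miRNA forms tested, with the mean RPM over the 6 libraries on a log axis and the log2 difference, 3 months minus prediabetic, on the vertical axis; red points are the 5 called forms. Most points lie near 0, miR-221-3p is the called form with the highest RPM, and miR-1-3p at -2.16 has the lowest difference without being called.

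Canonical miR-221-3p was at 438, 612 and 466 RPM in prediabetic replicates 1, 2 and 3 and at 1003, 1708 and 859 RPM in the 3-month replicates. Every 3-month library lay above every prediabetic library, and 3-month replicate 2 was the highest. The group means were 505 ± 93.6 and 1189.9 ± 454 RPM (SD, n = 3 each), and the log2 difference was 1.18 (SE 0.22, limma adjusted p = 0.0265). At 2 weeks of diabetes the 6 libraries ran from 476 to 667 RPM with a median of 565, all below the lowest 3-month library. The call ended without prediabetic replicate 1 (adjusted p = 0.0698) or prediabetic replicate 3 (adjusted p = 0.102).

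The form miR-221-3p+1, read from the same hairpin arm, gave 19.9, 21.5 and 21.6 RPM before diabetes and 50.7, 82.8 and 36.7 RPM at 3 months. Its libraries kept the same order at 3 months as those of the canonical form, and its log2 difference was 1.31 (SE 0.22, limma adjusted p = 0.0247). It made up 3.99% of miR-221-3p reads before diabetes and 4.54% at 3 months, so the canonical form dominated in both groups. The call ended without prediabetic replicate 1 (adjusted p = 0.0568) or prediabetic replicate 3 (adjusted p = 0.102). The other strand, miR-221-5p, was listed at 0 in the 3 prediabetic libraries and at 2.19, 1.46 and 0 RPM at 3 months, below the level tested.

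The partner miR-222-3p, which has the same seed and lies within 10 kb of miR-221 on chromosome X in GRCr8, did not pass the test. It was at 60.4, 97.5 and 47.8 RPM before diabetes and at 83.2, 115 and 81.8 RPM at 3 months. The groups overlapped through prediabetic replicate 2, and the log2 difference was 0.48 (SE 0.23, adjusted p = 0.242). Summed over the seed family, miR-221-3p and miR-222-3p made 574 ± 118 RPM before diabetes and 1283 ± 472 RPM at 3 months, nearly all of it miR-221-3p.

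miR-185-5p is encoded in an intron of Tango2 and has been described as a repressor of cholesterol uptake and synthesis genes. It was at 29.6, 44.6 and 40.6 RPM before diabetes and at 61.3, 60.8 and 61.4 RPM at 3 months. The 3-month libraries were close together, and the lowest prediabetic value was that of replicate 1. The log2 difference was 0.68 (SE 0.15, limma adjusted p = 0.0496), and the 2-week libraries spanned 33.6 to 46.5 RPM, below all 3-month libraries. Its +1 form, at 3.60 to 6.13 RPM over the 6 libraries, was too low to be tested. The call held without prediabetic replicate 2 and ended when any other of the 6 libraries was left out (adjusted p up to 0.175).

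miR-672-5p, encoded on chromosome X, fell from 14.8, 21.9 and 15.1 RPM before diabetes to 9.29, 6.61 and 7.37 RPM at 3 months. The groups did not overlap, and the log2 difference was -1.05 (SE 0.21, limma adjusted p = 0.0398). All of these values lie near the minimum mean of 10 RPM that a form needed to be tested. The call held without 3-month replicate 1 and ended when any other of the 6 was left out (adjusted p up to 0.119). At 2 weeks the median was 14.5 RPM, with a range of 8.75 to 15.5 RPM that reached into the 3-month values.

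miR-193a-5p fell from 42.6, 40.0 and 39.8 RPM before diabetes to 25.3, 31.3 and 23.5 RPM at 3 months. No 3-month library reached a prediabetic one, and the log2 difference was -0.60 (SE 0.13, limma adjusted p = 0.0496). Its other arm, miR-193a-3p, which has been described as a tumour-suppressive miRNA, gave 12, 13.6 and 15.3 RPM against 11.9, 11.1 and 9.97 RPM (log2 -0.29, adjusted p = 0.560). The +1 form of miR-193a-5p was at 6.46, 8.93 and 8.50 RPM before diabetes and at 5.12, 4.50 and 3.22 RPM at 3 months, under the level tested and without overlap. The call held without 3-month replicate 2 and ended when any other of the 6 was left out (adjusted p up to 0.192). It also ended with a pseudocount of 5 (adjusted p = 0.0538).

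**Figure D2:**
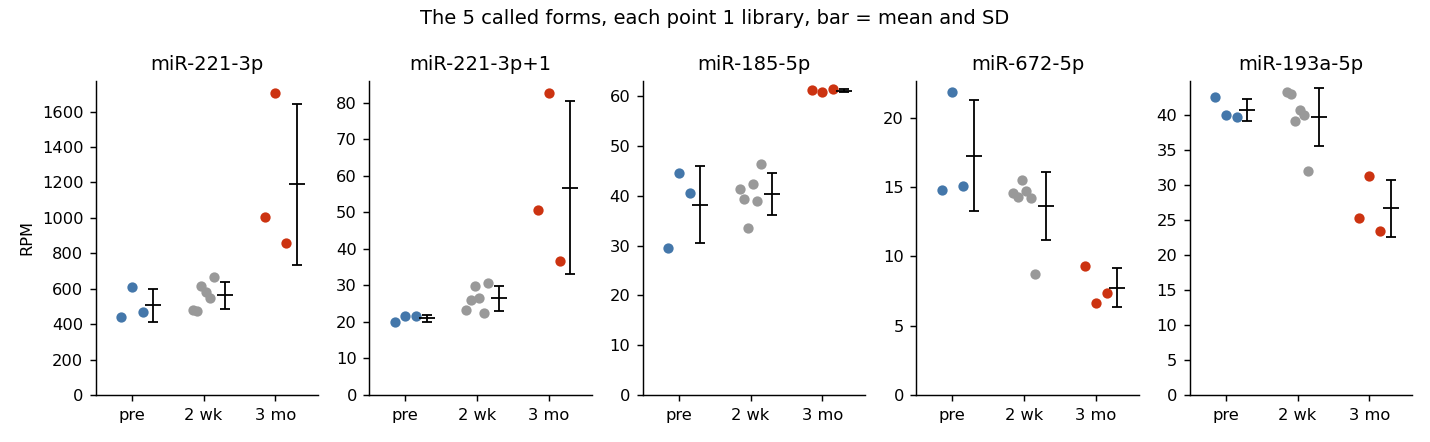
RPM of the 5 called forms, on axes that start at 0; each point is 1 library (3 prediabetic, 6 at 2 weeks, 3 at 3 months) and bars give the mean and SD of a group. In each panel the 3-month points are separate from the prediabetic points, and for miR-672-5p a single 2-week library at 8.75 RPM lies among the 3-month values.

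Summing the forms of each mature miRNA, with loci averaged, left 208 miRNAs to test, of which limma called 8 (3.85%), 5 higher (2.40%) and 3 lower (1.44%). All 4 miRNAs of the called forms were among them. The others, chosen here because they were called at this level, were both arms of miR-345, miR-27b-3p and miR-466c-5p. miR-345-3p was at 26.4, 28.2 and 29.3 RPM before diabetes and at 45.2, 48.0 and 40.8 RPM at 3 months (log2 0.66, adjusted p = 0.0218). Its opposite arm miR-345-5p was at 15.6, 20.3 and 15.9 against 33.5, 31.4 and 26.8 RPM (log2 0.79, adjusted p = 0.0315). Both strands of this hairpin were thus higher, and neither group overlapped the other in either arm. miR-466c-5p, a member of a repeat-rich rodent miRNA family whose near-identical copies may share reads, fell from 17.1, 15.3 and 12.6 RPM to 8.47, 7.47 and 8.03 RPM (log2 -0.82, adjusted p = 0.0218).

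Among canonical forms averaging 50 RPM or more over the 6 libraries, the 10 largest positive differences ran from 1.18 in miR-221-3p to 0.39 in miR-107-3p, and miR-322-2-5p at 0.36 was the first outside. Except for miR-221-3p none of them was called, and except for miR-222-3p none overlapped between the groups. Picking forms by size favours separate groups, and 20.2% of all forms were higher without overlap. miR-210-3p, a miRNA induced by hypoxia, was at 192, 205 and 156 RPM before diabetes and at 350.5, 279 and 233 RPM at 3 months (log2 0.63, SE 0.17, adjusted p = 0.0840). miR-375-3p, best known from pancreatic islets, was at 315, 353 and 248 RPM against 480.3, 426 and 392 RPM (log2 0.51, SE 0.15, adjusted p = 0.0863). Both showed each 3-month library above each prediabetic one. miR-505-3p was at 68.8, 68.6 and 74.3 against 104, 112 and 81.9 RPM (log2 0.47, adjusted p = 0.111), and miR-3068-5p at 31.2, 51.9 and 43.5 against 55.8, 55.1 and 64.3 RPM (log2 0.49, adjusted p = 0.242).

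miR-21-5p, a miRNA induced in liver injury and fibrosis, was at 55397, 55173 and 63229 RPM before diabetes and at 72369.8, 74084 and 90634 RPM at 3 months (log2 0.44, SE 0.20, adjusted p = 0.229). As the second most abundant miRNA it made up 6.11 ± 0.482% of reads before diabetes and 8.35 ± 1.05% at 3 months over all its forms. miR-27b-3p, described as a regulator of lipid metabolism genes, was at 3802, 4416 and 3929.8 RPM against 5252, 5468 and 5360.5 RPM. Its log2 difference was 0.41 (SE 0.10), with an adjusted p of 0.0792 as a canonical form, 0.0133 under median-of-ratios scaling and 0.0372 summed over its forms. miR-152-3p, of the miR-148 seed family, was at 838, 871 and 867 against 1155, 974 and 1283 RPM (log2 0.40, adjusted p = 0.0845). miR-107-3p, whose family has been linked to hepatic insulin sensitivity, was at 972, 984 and 972 against 1194, 1463 and 1198 RPM (log2 0.39, adjusted p = 0.0840, and 0.0363 under median-of-ratios scaling).

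On the negative side the 10 largest differences ran from -1.30 in miR-200b-3p to -0.36 in miR-802-3p, with miR-92a-1-3p at -0.34 the first outside, and none was called. miR-200b-3p, an epithelial miRNA that holds back epithelial-to-mesenchymal change, was at 101, 195 and 107 RPM before diabetes and at 40.4, 39.9 and 84.2 RPM at 3 months (log2 -1.30, SE 0.45, adjusted p = 0.123). miR-182 was at 67.2, 156 and 150.4 RPM against 42.8, 61.2 and 52.5 RPM (log2 -1.16, SE 0.32, adjusted p = 0.0840). miR-182 had an adjusted p of 0.0425 under median-of-ratios scaling and 0.0382 per 1000000 reads other than miR-122. With 1 library left out its limma adjusted p ran from 0.0327, without prediabetic replicate 1, up to 0.228. The SEs of these 2 forms are wide beside the median SE of 0.15 over all forms.

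miR-155-5p, a miRNA of activated leukocytes, was at 108, 103 and 97.2 RPM before diabetes and at 82.1, 56.5 and 64.6 RPM at 3 months (log2 -0.61, SE 0.18, adjusted p = 0.0845, and 0.0382 per 1000000 reads other than miR-122). Both arms of miR-802, an obesity-linked miRNA of hepatocytes, were lower without overlap. Its 5p arm was at 1354, 1437 and 1713 against 917, 1135 and 1163 RPM (log2 -0.49, adjusted p = 0.237) and its 3p arm at 260.4, 311 and 289 against 225, 219 and 227 RPM (log2 -0.36, adjusted p = 0.194). The 3p arm had an adjusted p of 0.0363 under median-of-ratios scaling and 0.0328 per 1000000 reads other than miR-122. miR-455-3p (log2 -0.43, adjusted p = 0.292) and the lymphocyte miRNA miR-150-5p (log2 -0.41, adjusted p = 0.221) also had separate groups. Summed over its forms, miR-150-5p just overlapped, at 91.8, 117 and 89.9 against 90.0, 72.2 and 68.9 RPM. miR-34a-5p, a p53-induced miRNA, overlapped: it was at 1288, 2398 and 2169.9 RPM before diabetes and at 1081, 1437 and 1955 RPM at 3 months (log2 -0.38, adjusted p = 0.540).

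**Figure D3:**
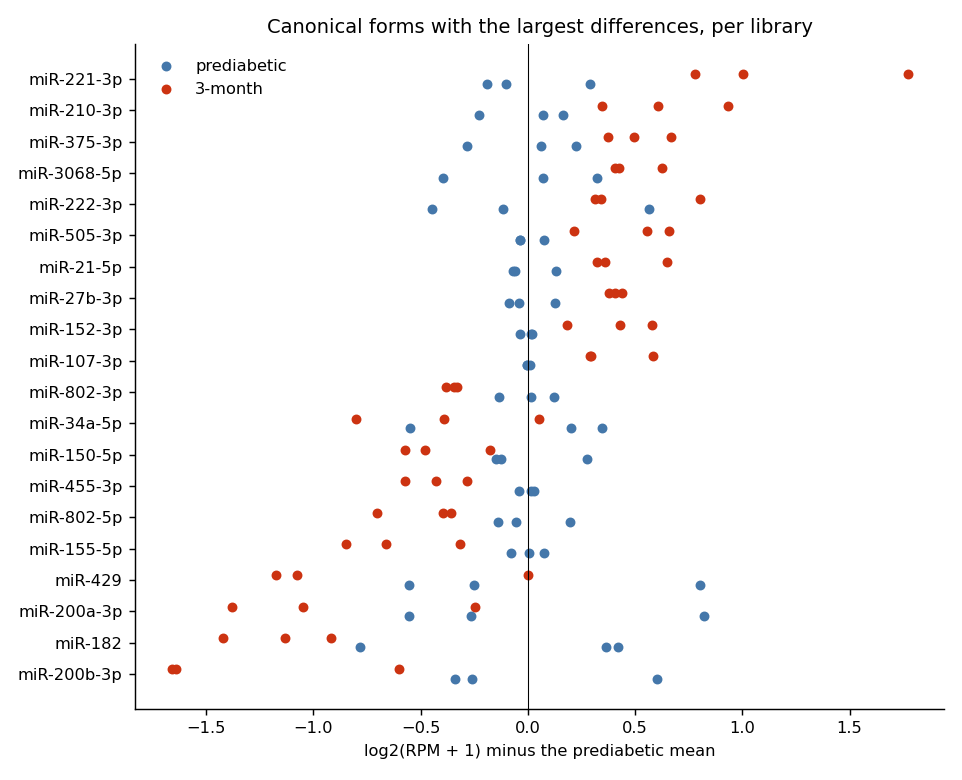
The 10 canonical forms with the largest positive and the 10 with the largest negative difference (averaging 50 RPM or more); each point is 1 library, placed by its log2(RPM + 1) minus the prediabetic mean of that form, blue for prediabetic and red for 3 months. miR-222-3p, miR-34a-5p, miR-429 and miR-200a-3p overlap between the groups, and the other 16 do not. The forms were picked by size, which favours separate groups. Over all 435 forms tested 30.8% did not overlap.

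Of the 11 tested forms with a log2 difference beyond 1 in size, 4 were higher and 7 lower, and 3 of the 11 were called. miR-190b-5p and miR-218a-1-5p are named here for their size, after their values were seen. The former was at 31.1, 24.2 and 22 RPM against 40.8, 54.3 and 85.4 RPM (log2 1.14, adjusted p = 0.205). The largest positive value among tested forms, 1.35 in miR-218a-1-5p, came from prediabetic replicate 1 at 0 RPM beside 42.5 and 21.6 RPM in the other prediabetic libraries. The largest negative value among them, -2.16 in miR-1-3p (adjusted p = 0.224), had prediabetic replicate 3 at 54.0 RPM beside 5.99 and 7.64 RPM. In both of these miRNAs the groups overlapped. Of the 641 forms too low to be tested, 16 were beyond 1 higher and 13 lower. Summed over forms, miR-137-3p, a neuronal miRNA, was listed at 0 in the 3 prediabetic libraries and at 36.3, 17.7 and 14.4 RPM at 3 months, and its canonical form was listed at 0 in all 6 libraries at 2 weeks. miR-184 was listed at 0 in the prediabetic libraries and at 9.75, 6.90 and 11.1 RPM at 3 months. Both are named after their values were seen and have no test. Of the 641 forms too low to be tested, 9 were at 0 in every prediabetic library and above 0 in every 3-month library.

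The miR-29 family, known for repressing collagen and other matrix genes, was not called in any member. miR-29a-3p, its main member, was at 4041, 5419.8 and 5193 RPM before diabetes and at 5308, 4967 and 5241 RPM at 3 months (log2 0.09, adjusted p = 0.673). miR-29c-3p gave 598, 804 and 789.5 against 791, 746 and 751 RPM (log2 0.07, adjusted p = 0.807). For both, prediabetic replicate 1 was the lowest library, and without it the differences were -0.04 and -0.06. The scarce miR-29b-3p, listed at 3 loci with nearly equal values, had separate groups: at locus 1 it was at 15.1, 25.5 and 24.8 RPM before diabetes and at 37.2, 34.9 and 40.4 RPM at 3 months (log2 0.79, SE 0.22, adjusted p = 0.0840). In GRCr8 it lies within 10 kb of miR-29a at locus 1, on chromosome 4, and of miR-29c at locus 2, on chromosome 13. Its adjusted p was 0.0424 under median-of-ratios scaling.

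miR-122-5p sets the scale of the other shares. Its canonical form took 42.6%, 40.0% and 40.1% of reads before diabetes and 39.4%, 38.4% and 37.2% at 3 months. Every 3-month library was below every prediabetic one, and the means were 40.9 ± 1.47% and 38.3 ± 1.07% (SD, n = 3 each). The difference of -2.58 percentage points had a two-sided exact permutation p of 0.1, the smallest that 3 against 3 libraries can give. With all forms the share was 48.8 ± 2.00% and 45.6 ± 1.42%. With loci averaged, the 10 most abundant mature miRNAs were miR-122-5p, miR-21-5p, miR-22-3p, miR-26a-5p, miR-192-5p, miR-26b-5p, miR-148a-3p, miR-101b-3p, let-7f-5p and let-7g-5p. Together they stood at 75.3 ± 1.06% and 75.0 ± 0.110% of the library total. That total counts every locus, so these are not exact shares of reads. The ranking depends on the averaging: let-7a-5p, with prediabetic means of 9849 RPM at locus 1 and 9412 RPM at locus 2, ranked 15. None of these 10 was called.

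miRNA lists and clusters were described by counts of forms, beside the median of 0.03 over all forms. Of the 435 forms tested 244 (56.1%) had a positive difference, and 20.2% lay above the prediabetic values without overlap. Summed levels average the loci of a mature sequence. Several forms in a list can hold the same reads, because a mature sequence is listed once per locus and per offset. In the miR-322 and miR-503 cluster, an X-chromosome cluster with members of the miR-15 and miR-16 seed family, all 12 forms tested were positive, with a median of 0.34, and 10 lay without overlap above the prediabetic values. These 12 are forms of 5 mature miRNAs. miR-322-1-3p, for example, was at 27.3, 24 and 26.1 RPM against 31.9, 34.4 and 35.6 RPM (log2 0.38, adjusted p = 0.0840), and miR-322-2-3p had the same values. miR-450b-1-3p, from the same stretch of the genome but not on the list, had a log2 difference of -0.06. No form of the cluster was called.

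The miR-23, miR-27 and miR-24 clusters, a pair of related clusters on chromosomes 17 and 19 in GRCr8, gave 19 positive forms of 19, a median of 0.18 and 8 forms higher without overlap (20.2% over all forms), none called. Their summed RPM was 7253 ± 514 before diabetes and 9051 ± 107 at 3 months, with the 3-month libraries at 9022, 9169 and 8961. The seed family of miR-27a-3p and miR-27b-3p, set out with the sequences above, stood at 3912, 4571 and 4047 RPM against 5419.5, 5613 and 5525 RPM. miR-24-1-3p was at 1219, 1379 and 1229 against 1499, 1446 and 1399 RPM (log2 0.18, adjusted p = 0.237), and miR-23b-3p at 728, 729.7 and 711 against 795, 855 and 771 RPM. The seed family of miR-103-3p and miR-107-3p was at 2379.6 ± 65.3 against 2830.5 ± 262 RPM, also without overlap.

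In the miR-17-92 cluster and its relatives, a group tied to cell proliferation, 10 of 27 forms were positive and 17 negative, with a median of -0.03. miR-92a-1-3p was at 6277, 6093 and 5080.1 against 4362, 4856 and 4516 RPM (log2 -0.34, adjusted p = 0.189), while miR-17-2-5p was at 159, 171 and 159 against 192, 199 and 179.7 RPM (log2 0.22). These 2 forms lie in different clusters of the group, on chromosomes 15 and X in GRCr8. Within the chromosome 15 cluster 3 of 8 canonical forms were positive and 5 negative. In the list of the miR-193 and miR-365 clusters 1 of 4 forms was called, miR-193a-5p. From the other miRNAs on this list, the tested forms miR-193b-3p (0.02) and miR-365-3p (-0.08) were near 0. Their opposite arms were below the level tested. Summed over forms, miR-365-5p was at 7.76, 8.83 and 6.32 against 3.79, 4.18 and 2.28 RPM, without overlap. miR-193b-5p was at 3.05, 2.77 and 3.69 against 3.29, 3.77 and 2.80 RPM, with overlap. The miR-182, miR-183 and miR-96 cluster had both tested forms negative: miR-183-5p was at 11.0, 29.5 and 21.2 against 7.92, 12.3 and 6.23 RPM (log2 -1.08, adjusted p = 0.1).

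Over both arms of the let-7 and miR-98 hairpins 27 of 41 forms were positive, with a median of 0.04 and none called. let-7f-1-5p was at 11621, 11924 and 11781 against 13284, 13316 and 13429 RPM (log2 0.18, adjusted p = 0.199), a narrow spread with separate groups, and miR-98-5p was at 436, 463 and 433 against 516, 523 and 577 RPM (log2 0.28, adjusted p = 0.151). Over both arms of the miR-30 hairpins 14 of 19 forms were positive (median 0.18), with miR-30a-5p at 10514, 11428 and 11736 against 12520.1, 13039 and 13586 RPM. Over both arms of the hairpins that carry the miR-15 and miR-16 seed 12 of 17 forms were positive; of the 5 mature miRNAs with the seed itself 3 were positive and 2 negative. One of the negative members, miR-497-5p, was at 867, 833 and 801 RPM before diabetes and at 723, 636 and 672 RPM at 3 months (log2 -0.30, adjusted p = 0.0840). The family, which includes regulators of the cell cycle, thus held members on both sides.

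The liver metabolic list had 1 of 70 forms called, miR-185-5p, with 34 positive and 36 negative forms and a median of -0.02. miRNAs tied to TGF-beta and fibrosis had 22 of 35 forms positive and a median of 0.07, none called, with miR-21-5p and miR-29b-3p above it and miR-200a-3p and miR-200b-3p below. The p53-responsive list had 4 forms and a median of -0.39. Its miR-34c-5p was at 22.6, 30.6 and 31.2 against 33.0, 38.4 and 43.4 RPM (log2 0.44, adjusted p = 0.189), opposite in sign to miR-34a-5p, which shares its seed.

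**Figure D4:**
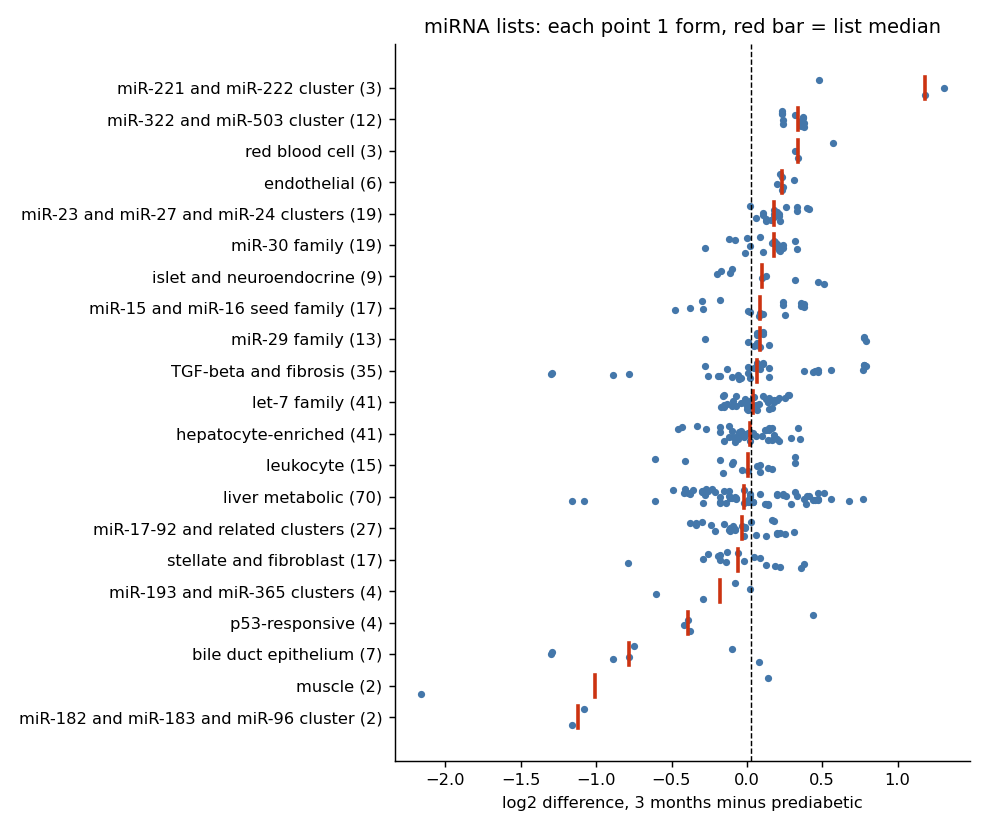
Log2 difference, 3 months minus prediabetic, of every tested form in each miRNA list with at least 2 tested forms (number in parentheses); red bars are list medians and the dashed line is the median of all 435 forms, 0.03. The miR-322 and miR-503 cluster lies wholly to the right, the bile duct epithelium list mostly to the left, and the let-7, hepatocyte-enriched and liver metabolic lists straddle the line.

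Markers of the liver's cell types gave no call. The hepatocyte-enriched list had 22 of 41 forms positive and a median of 0.02, with miR-194-2-3p at 112, 131 and 117 against 97, 108 and 93.7 RPM (log2 -0.27, adjusted p = 0.272). Its summed RPM was 568608 ± 15309.9 before diabetes and 541264 ± 10916 at 3 months. All 6 forms of the endothelial miR-126a, which share 1 hairpin, lay above the prediabetic values (20.2% over all forms), with a median of 0.23 and 5349, 6028 and 6012 RPM in sum against 6629, 6649 and 7101 RPM. Its most abundant strand, miR-126a-5p, was at 2565, 2976 and 2967 against 3127, 3305 and 3502 RPM (log2 0.23, adjusted p = 0.375). The stellate and fibroblast list had 7 of 17 forms positive and a median of -0.06, with miR-10a-3p at 0.36 and miR-143-5p at -0.29, and the leukocyte list 8 of 15 and a median of 0.01. The red blood cell list had 3 of 3 positive, at 63.3, 50.5 and 101 RPM in sum against 70.1, 110.5 and 103 RPM, with overlap.

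Bile duct epithelium miRNAs, the miR-200 family and miR-141, summed to 579, 1556 and 642 RPM before diabetes and to 388, 412 and 686 RPM at 3 months. Prediabetic replicate 2 was the highest of the 6 libraries and 3-month replicate 3 lay above the other prediabetic libraries. Of the 7 forms 6 were negative, with a median of -0.78. Without prediabetic replicate 2 the log2 differences were -1.0 in miR-200b-3p, -0.48 in miR-200a-3p and -0.35 in miR-429. miR-141-3p was at 50 RPM and miR-200c-3p at 277 RPM in prediabetic replicate 2, against at most 19.2 and 119.7 RPM in the other 5 libraries. Without this library limma called 3 forms, all 3 higher; the calls of miR-672-5p (-0.87) and miR-193a-5p (-0.62) ended (adjusted p = 0.0914 for each). In the muscle list miR-499-5p was at 39.8, 49.3 and 55.9 RPM against 50.1, 54.0 and 54.4 RPM, and miR-1-3p was described above. Summed over forms, miR-133a-3p, below the level tested, was at 6.50, 20.1 and 23.8 against 5.28, 4.76 and 2.76 RPM, without overlap. miR-1b, not on the list but with the seed of miR-1-3p, was at 30.7, 98.3 and 124 against 33.7, 30.2 and 15.5 RPM. Its groups overlapped (log2 -1.49, limma adjusted p = 0.163). The whole list summed to 61.5, 88.2 and 159 against 74.9, 67.2 and 65.1 RPM, with overlap. The pancreatic acinar list, which would mark pancreas in the sample, summed to 0 in 5 libraries and to 1.14 RPM in 3-month replicate 3. The neuron list had no form abundant enough to be tested; it summed to 16.5, 15.9 and 9.22 RPM before diabetes and to 62.3, 32.4 and 27.8 RPM at 3 months, without overlap. Without miR-137 its sums were 16.5, 15.9 and 9.22 RPM against 26, 14.7 and 13.3 RPM, with overlap. The Dlk1-Dio3 imprinted cluster, a large miRNA cluster, was also below the level tested, at 0, 7.25 and 2.33 RPM in sum against 52.7, 5.23 and 12.3 RPM. The islet and neuroendocrine list summed to 814 ± 53.6 and 919 ± 68.7 RPM, with miR-375-3p higher and miR-7a-1-5p, at 361, 411 and 409 against 357, 345 and 326 RPM, lower.

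Both arms of a hairpin were tested in 57 hairpins, and in 39 of them (68.4%) the arms had the same sign; across hairpins the Pearson correlation of the arms' differences was 0.57. Shifted and canonical forms of the same arm had the same sign in 102 of 114 cases (89.5%), with a correlation of 0.96 and a median gap of 0.04. These values describe forms that share libraries, and the forms are not independent replicates.

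Host genes, whose introns or transcripts carry a miRNA, and published targets of miR-221 and miR-222 and miR-185 were followed in the RNA libraries, where values are normalised read counts. In that assay 2248 of 13640 genes (16.5%) were called between 3 months and prediabetic, 1058 higher (7.76%) and 1190 lower (8.72%). Of 23 host genes tested, 1 was called higher and 2 lower, with a median log2 difference of 0.01. Of 15 target genes, 2 were called higher and 3 lower, with a median of 0.05, beside 0.02 over all genes. Aopep, a host, and Bbc3, a target, were not analysed here. The targets were taken from general knowledge of the field, and binding of these miRNAs was not measured. The share of all genes whose groups did not overlap was not counted, and describing called genes favours separate groups.

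Srebf2, the transcription factor that drives cholesterol synthesis, hosts miR-33 and is a published target of miR-185. Its prediabetic libraries gave 1424, 1201, 1666, 1413 and 1298 normalised counts and its 3-month libraries 2692, 1865, 2622, 2396 and 1879. The groups did not overlap, and the gene rose by 0.70 (SE 0.14, limma adjusted p = 0.00334). Its intronic miR-33-5p had 26.3, 33.9 and 27.4 RPM against 44.5, 26.5 and 25.2 RPM (log2 0.09, adjusted p = 0.841), with overlap. Tango2, the host of miR-185, was at 237, 253, 246, 224 and 215 against 278, 366, 245, 301 and 284 normalised counts (log2 0.32, adjusted p = 0.247). The lowest 3-month library of Tango2 lay within the prediabetic range.

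Pank1, a pantothenate kinase gene that hosts miR-107, fell from 5842, 5821, 5827, 6062 and 6541 to 3472, 4995, 4818, 4188 and 5385 normalised counts (log2 -0.41, SE 0.12, adjusted p = 0.0230), while miR-107-3p had a log2 difference of 0.39. Ctdsp1, a phosphatase gene that hosts miR-26b, fell by 0.29 (adjusted p = 0.0285), and miR-26b-5p, summed over forms, was at -0.11 (adjusted p = 0.467). Both host genes had separate groups, which picking called genes favours. The call of Pank1 ended without prediabetic replicate 5 (adjusted p = 0.0553) or 3-month replicate 1 (0.0714), and that of Ctdsp1 ended in 5 of 10 such omissions, namely prediabetic replicates 1 and 4 and 3-month replicates 1, 2 and 3. Egfl7, the endothelial host gene of miR-126a, was at 369, 397, 214, 259 and 269 against 454, 337, 498, 484 and 319.7 normalised counts (log2 0.49, adjusted p = 0.0856).

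Among 9 published targets of miR-221 and miR-222, Kit, the stem cell factor receptor gene, rose from 303, 189.9, 192, 242 and 264 to 335, 337, 366, 344 and 362 normalised counts (log2 0.57, SE 0.15, adjusted p = 0.0152). Bmf, a pro-apoptotic member of the Bcl-2 family, fell from 1281, 657, 1057, 962 and 679 to 261, 226, 199, 148 and 546 (log2 -1.85, SE 0.36, adjusted p = 0.00255). Pik3r1, the regulatory subunit of the insulin-responsive PI3-kinase, fell from 4714, 2134, 2955 and 4149.8, with a last library just above the highest of these, to 1053, 929.5, 1674, 2067 and 1777 (log2 -1.32, SE 0.28, adjusted p = 0.00493). None of these 3 genes overlapped between the groups, which picking called genes favours. The cell-cycle inhibitors differed in sign without a call: Cdkn1b had a log2 difference of 0.24 (adjusted p = 0.359) and Cdkn1c of -1.14 (adjusted p = 0.0941). Timp3 (0.43), Icam1 (0.15), Foxo3 (0.09) and Ddit4 (-0.17) were not called.

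Of 6 published targets of miR-185, Srebf2 rose as given above and Srebf1, the transcription factor that drives fatty acid synthesis, fell. Srebf1 was at 11582, 8273, 12888, 15362 and 15914 normalised counts before diabetes and at 4232, 4566, 2924, 6452 and 8297 at 3 months (log2 -1.33, SE 0.30, adjusted p = 0.00654). The groups touched only where 3-month replicate 5 exceeded prediabetic replicate 2. Scarb1 (0.05), Dnmt1 (0.24), Cdc42 (-0.10) and Rhoa (-0.13) were not called. The published targets of both miRNAs thus included called genes of both signs.

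**Figure D5:**
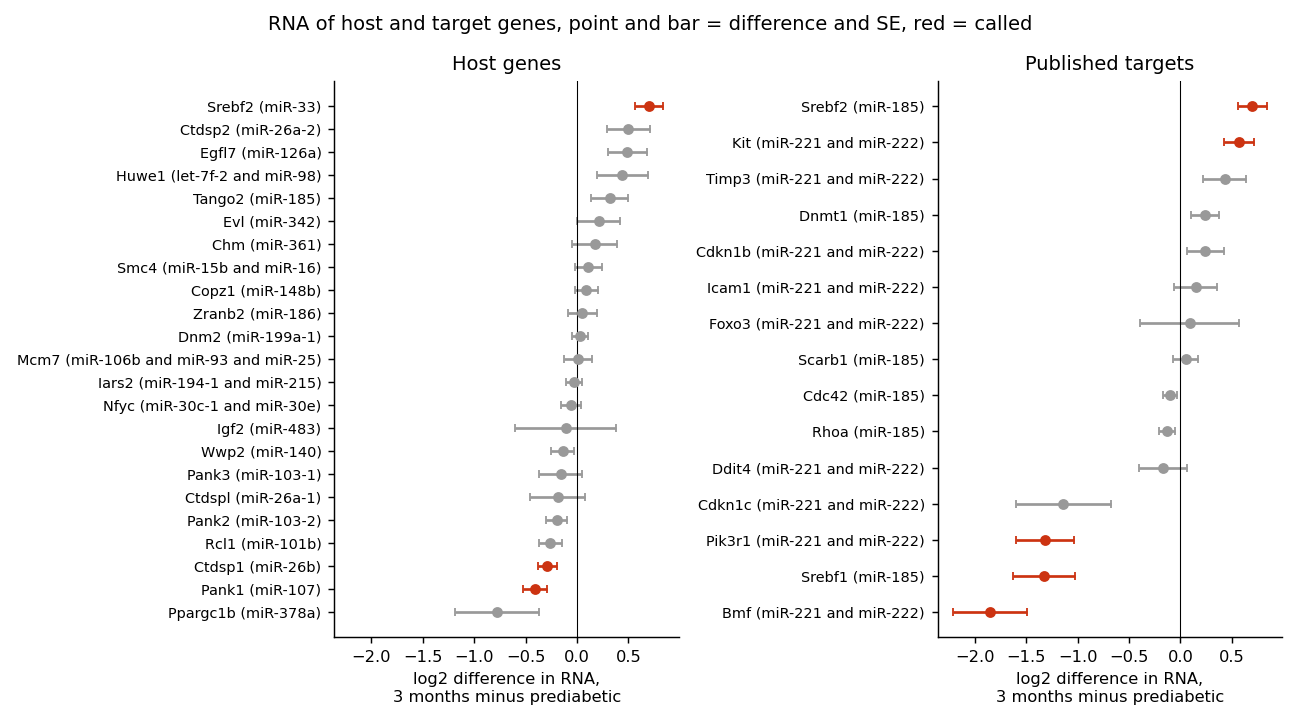
Log2 difference in RNA, 3 months minus prediabetic (5 libraries each), of 23 host genes and 15 published target genes, with the miRNA in parentheses; points and bars give the difference and its SE, and red marks the called genes. Srebf2 appears in both panels at 0.70, and Bmf at -1.85 is the lowest.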

How the data were processed

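Members and lists were chosen with earlier results of these data known. Per the labels' protocols, the small RNA kit was TriLink CleanTag. The authors deposited RPM per miRNA form, listed per locus; what an offset counts is not given in the sources used here. RNA values are a signal, normalised counts the authors deposited, whose column sums were 37.6 to 44.7 in units of 1000000. STAR, Salmon and DESeq2 and the build rn6 are named per the submitters' processing notes, without version or role.

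RPM did not step in whole reads, so limma 3.58.1 (R 4.3.3) with a variance trend was fitted to log2(value + 1) of all 12 small RNA or 20 RNA libraries of the strain (RNA at 2 weeks and 6 months included). Features with a mean of at least 10 were tested (two-sided p, Benjamini-Hochberg adjusted, called under 0.05), and the fit was tested on simulated data. No count model and no block were used.

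Named were called forms, the 10 largest differences each way (canonical, mean of at least 50 RPM), the 10 most abundant miRNAs, miR-29, up to 3 called or 2 other members per list, arms and shifted forms of called hairpins, and called, host or target genes. Lists came from general knowledge: 24 of miRNAs, 24 host and 16 target genes, and 1 further target is not reported here. Neighbouring miRNA genes lay within 10 kb in GRCr8, used for names and order only.

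Alternatives changed scaling, pseudocount, filter, libraries, variance trend, block and feature level.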

Additional observations from a re-analysis of the deposited data

Results flagged for a closer look

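Of 66 groups of 4 to 6 libraries examined, 4 had a library far from the others, and chance gives about 1 in 20. They were a 2-week library at 32.1 RPM for miR-193a-5p, a 2-week library at 8.75 RPM for miR-672-5p, a 3-month RNA library at 546 normalised counts for Bmf and a prediabetic RNA library at 3334 normalised counts for Icam1. For Bmf that library was the one nearest to the prediabetic values.

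The 3-month difference from prediabetic was not the same as the 2-week difference in 15 of 30 forms compared. The test was the limma contrast between the 2 groups, with Benjamini-Hochberg adjustment over all 435 forms. Over all 435 forms 109 (25.1%) were called in this contrast, and the 30 were chosen largely for their 3-month difference. Both differences use the same 3 prediabetic libraries, which drop out of this contrast. The 3-month difference minus the 2-week difference on the log2 scale was 1.03 in miR-221-3p, 1.00 in miR-221-3p+1 and 0.59 in miR-185-5p. It was -0.74 in miR-672-5p and -0.56 in miR-193a-5p. Among forms not called against prediabetic it was 1.03 in miR-375-3p, 0.54 in miR-210-3p, 0.67 in miR-3068-5p, 0.60 in miR-21-5p, 0.60 in miR-27b-3p, 0.52 in miR-152-3p and 0.46 in miR-107-3p. For miR-29b-3p it was 1.19 at locus 1 and 1.20 at loci 2 and 3. From prediabetic to 2 weeks no form was called.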

How the results depend on the processing

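The 5 forms called became 19 with median-of-ratios scaling, 24 per 1000000 reads without miR-122, 13 with a mean of at least 1 RPM, 15 with no filter, 1 with a mean of at least 50 RPM, 0 with the 6 libraries alone and 8 at the level of mature miRNAs. Leaving out 1 library gave 0 to 3 calls: 0 without prediabetic replicate 3, 1 without prediabetic replicate 1, 2 without 3-month replicate 3 and 3 without any other. The 1 form called without prediabetic replicate 1 was none of the 5 but miR-182 (log2 -1.55, limma adjusted p = 0.0327). With the replicate block 1 form was called in the 6 small RNA libraries, against 0 without the block and 5 in the main fit. That form was miR-21-5p, and the 5 forms had limma adjusted p of 0.0580 to 0.0841 with the block. In the 10 RNA libraries of these groups 946 genes were called with the block and 1622 without it, against 2248. Replicate numbers did not pair the samples, judged by the deviations of log2 values from their group mean. These deviations correlated between same-numbered libraries at 0.036, -0.233 and -0.232 for small RNA and between -0.175 and 0.077 for RNA. With the block miR-21-5p had a limma adjusted p of 0.0395, and in no library did the deviations correlate best with those of its own number. RNA calls ran from 1449 to 2393 with 1 library left out. The miR-122-5p difference ran from -3.09 to -1.73 points.

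Signs turned for miR-29a-3p (-0.04 without prediabetic replicate 1, range -0.04 to 0.17 over omissions), miR-29c-3p (-0.06 there, range to 0.15, and -0.01 per 1000000 reads without miR-122), Foxo3 (-0.30 without prediabetic replicate 2 and -0.06 without 3-month replicate 4, range to 0.34), Icam1 (-0.02 without 3-month replicate 1, range to 0.30) and Scarb1 (-0.03 without 3-month replicate 3, range to 0.15), none of them called. The cause was not tested. The 5 called forms kept their sign in every alternative run. Depth is unknown, so the precision of low forms such as miR-672-5p cannot be given.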
